A study of Mus musculus with 20 samples.

Results

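The genes that encode collagen chains were examined in the skin of hairless SKH-1 mice, in a model of carcinoma brought about by ultraviolet (UV) irradiation. A gene was included when its symbol was Col, a number, the letter a and a number and nothing more, with the anchoring fibril gene Col7a1 and the hemidesmosome gene Col17a1 left out. The rule gave 42 of the 22090 gene symbols in the count table, and it uses symbols alone. RNA-seq had been run on 20 pieces of skin, namely 8 normal skin (NS), 8 actinic keratoses (AK, a precancerous lesion) and 4 cutaneous squamous cell carcinomas (cSCC). All came from 8 female mice, aged 7 months when they were supplied, of which 4 were irradiated with UVA and UVB from a solar simulator and 4 were kept free of UV. NS came from irradiated and unirradiated mice alike, whereas AK and cSCC came only from the 4 irradiated mice, which gave 2 AK and 1 cSCC each. The labels do not tie a sample to a mouse, nor do they give the AK grade or which NS had been irradiated, so samples were treated as independent and p-values may be too small. Sample numbers run on through the groups (NS 1 to 9 without a sample 3, AK 10 to 17, cSCC 18 to 21).

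Total counts ranged from 775750 in cSCC 20 to 14055206 in AK 10. A level of 3 counts, taken as the floor of detection, was 0.225 CPM (the count divided by the library total after scaling with edgeR's TMM factors, times 1e6) in AK 10 and 3.78 CPM in AK 12. Genes of other tissues were high in some cSCC libraries. The summed level of 8 heart muscle genes was 55200 CPM in cSCC 21 and at most 151 CPM in every other sample. The summed level of 7 lung epithelium genes was 35900 CPM in cSCC 20 and at most 59.3 CPM elsewhere. In cSCC 18, 4 haemoglobin genes summed to 921000 CPM. That sum is inflated by the TMM factor of 0.5086 of this library, since the 4 genes took 46.8% of its counts. They took 14.3% of the counts of AK 14. The 6 keratinocyte genes, which define the labelled tissue, were detected in all 4 cSCC. Most of the level there was Krt14 and Krt5, which were not called in any comparison of all samples. The 6 genes summed to 18000, 17200, 5140 and 3780 CPM in cSCC 18, 19, 20 and 21 and to 6380 to 19000 CPM in NS. Dsg3 was called higher in cSCC than in NS, but not without cSCC 21 alone or with haemoglobin genes left out. Without cSCC 20 and 21 together it was called higher. Trp63 was not called in a comparison of all samples. It was at 518, 337, 175 and 48 CPM in cSCC 18 to 21 and at 230 to 550 CPM in NS. The differentiation keratins Krt1 and Krt10 were lower in cSCC than in NS (log2 fold change -3.46 and -4.04) and than in AK (edgeR). Krt10 was at 321, 9.23, 44.4 and 11.6 CPM in cSCC 18 to 21 and 899 to 2490 CPM in NS. Without cSCC 20, Krt10 alone was called lower against NS and neither gene was against AK. The same held without cSCC 20 and 21 together, where Krt5 was called higher against AK. Since tissue RNA was measured in bulk, fewer cells of a type and less RNA per cell cannot be told apart.

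Collagens are matrix proteins built from chains wound into a triple helix. Types I, III and V form the fibrils that give the dermis its strength, type IV forms the sheet-like network of basement membranes under the epidermis and around vessels, and type VI forms beaded filaments close to cells. Fibril-associated collagens such as types XII, XIV and XVI sit on or between fibrils, type VIII is a short-chain network collagen of vessels and basement membranes, and types XV and XVIII carry heparan or chondroitin sulfate chains near basement membranes. In skin, most fibrillar collagen is made by dermal fibroblasts, and type IV is made by keratinocytes, fibroblasts and vessel cells.

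Type IV chains are encoded in head-to-head pairs, and the members of the pairs Col4a1 with Col4a2 and Col4a5 with Col4a6 are shown here because, among the called collagen genes, Col4a2 had the largest fitted rise and Col4a6 the largest fitted fall. The annotated starts of Col4a1 and Col4a2 lie 21 bases apart on chromosome 8, on opposite strands, so the gene models overlap by 22 bases. Those of Col4a5 and Col4a6 lie 1309 bases apart on chromosome X. Promoter windows of RefSeq (GRCm38.p6) run from 250 bases before to 50 bases after the start of a gene. Capitals mark a GC box (GGGCGG) or a CCAAT box (CCAAT), on either strand. The windows are chr8:11312777-11313076 (minus strand) for Col4a1, chr8:11312555-11312854 (plus strand) for Col4a2, chrX:141475169-141475468 (plus strand) for Col4a5 and chrX:141474027-141474326 (minus strand) for Col4a6.
Col4a1: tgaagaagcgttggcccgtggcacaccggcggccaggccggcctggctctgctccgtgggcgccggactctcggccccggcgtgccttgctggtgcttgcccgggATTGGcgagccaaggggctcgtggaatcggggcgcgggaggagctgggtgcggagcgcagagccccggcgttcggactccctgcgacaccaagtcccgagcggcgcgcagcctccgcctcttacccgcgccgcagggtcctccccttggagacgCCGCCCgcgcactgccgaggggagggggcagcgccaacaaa
Col4a2: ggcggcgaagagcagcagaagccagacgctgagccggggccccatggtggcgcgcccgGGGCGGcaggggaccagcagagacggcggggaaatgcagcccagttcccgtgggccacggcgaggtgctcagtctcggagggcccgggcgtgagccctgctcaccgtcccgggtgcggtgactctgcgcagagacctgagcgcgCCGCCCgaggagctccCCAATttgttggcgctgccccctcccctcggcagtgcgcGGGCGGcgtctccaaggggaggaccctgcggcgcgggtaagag
Col4a5: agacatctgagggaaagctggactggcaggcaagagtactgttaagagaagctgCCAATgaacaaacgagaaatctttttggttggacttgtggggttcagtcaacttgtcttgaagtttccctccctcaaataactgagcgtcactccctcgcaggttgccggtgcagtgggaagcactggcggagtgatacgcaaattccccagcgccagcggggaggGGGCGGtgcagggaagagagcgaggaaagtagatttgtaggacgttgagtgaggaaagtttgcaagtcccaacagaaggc
Col4a6: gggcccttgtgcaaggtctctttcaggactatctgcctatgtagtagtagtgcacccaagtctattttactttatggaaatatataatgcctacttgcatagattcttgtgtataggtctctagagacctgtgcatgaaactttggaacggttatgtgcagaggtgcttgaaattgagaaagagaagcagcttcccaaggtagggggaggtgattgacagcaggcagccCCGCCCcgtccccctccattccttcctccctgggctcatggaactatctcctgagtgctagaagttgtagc
The Col4a1 and Col4a2 windows share 78 bases. The Col4a1 window held 1 GC box and 1 CCAAT box, the Col4a2 window 3 and 1, the Col4a5 window 1 and 1, and the Col4a6 window 1 and 0. Windows were matched for 33 of the 42 collagen genes, 36 windows in all. A GC box was found in 61.1% of these windows and in 35.7% of all 32851 promoter windows of the table, and a CCAAT box in 30.6% and 37.4%. A TATA box (TATAAA) was found in 11.1% of collagen windows against 13.6% of all. These matches describe the letters only.

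Together the 42 genes took 0.0704% to 0.304% of the counts of a library in NS (median 0.15%), 0.0647% to 0.282% in AK (median 0.163%) and 0.0636%, 0.377%, 0.379% and 0.0793% in cSCC 18, 19, 20 and 21. The highest shares were those of cSCC 19 and cSCC 20 (95% Wilson intervals 0.369% to 0.386% and 0.366% to 0.393%, counting error only). The share of cSCC 18 was below that of all NS, and that of cSCC 21 below all NS but 1. Haemoglobin genes took 46.8% of the counts of cSCC 18, and with them left out of the totals its share was 0.12%, that of cSCC 21 0.0843% and those of NS 0.071% to 0.308% (median 0.15%). Col1a1, Col1a2 and Col3a1 made up 67.7% to 76.3% of the collagen counts in NS and 69.0% to 76.3% in AK. In cSCC 21 they made up 36.1%, while Col4a1 and Col4a2 made up 27.0%, against 0.462% to 3.75% for that pair in all other samples.

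Levels of different genes were compared per kilobase of the transcript with the longest coding sequence in GENCODE M21. Col3a1 was highest in NS with 133 ± 63.7 CPM per kb (SD, n = 8), followed by Col1a2 with 66.5 ± 31.1 and Col1a1 with 23.3 ± 12.1. Next came Col5a2 with 8.54 ± 4.71, Col6a1 with 8.54 ± 4.32, Col6a3 with 6.29 ± 3.23, Col6a2 with 6.01 ± 2.79 and Col16a1 with 5.29 ± 0.988, which do not differ beyond their spread. Col3a1, Col1a2 and Col1a1 were also the 3 highest in AK (151 ± 59.3, 55.5 ± 25.9 and 17.6 ± 9.96 CPM per kb) and in cSCC (161 ± 145, 71.3 ± 43.3 and 38.3 ± 22.2). At the low end, the cartilage genes Col9a1 and Col9a2 had no count in any sample, and Col26a1, Col22a1, Col19a1 and Col2a1 had 1, 3, 4 and 4 counts over all 20 samples. Col11a2, Col6a4, Col25a1, Col10a1, Col9a3, Col8a2 and Col20a1 had between 8 and 42 counts each. The cartilage marker Acan was at 0 in every sample.

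Of the 42 collagen genes, 22 were kept by the filter on low counts for AK vs. NS, 24 for cSCC vs. NS and 21 for cSCC vs. AK. They were tested with edgeR's quasi-likelihood test within a fit of the whole table. A differentially expressed gene (DEG) passed 0.05 after Benjamini-Hochberg adjustment, with a fold change over 1.5 or under 0.67. For AK vs. NS, 0 collagen genes were higher and 1 was lower (Col16a1), where 2.26% of all 11677 genes tested were higher and 2.38% lower. At an unadjusted p-value under 0.05, 1 was higher and 4 were lower, and DESeq2 and limma voom also called 0 higher. For cSCC vs. NS, 2 were higher (Col8a1 and Col4a1) and 1 was lower (Col4a6), where 11.7% of all 12097 genes were higher and 7.65% lower. For cSCC vs. AK, 5 were higher (Col4a2, Col4a1, Col8a1, Col5a3 and Col1a1) and 1 was lower (Col4a6), where 16% of all 12032 genes were higher and 8.34% lower. The median log2 fold change of the collagen genes tested was -0.28, 0.64 and 0.84 in these comparisons, and that of all genes tested was -0.04, 0.14 and 0.17. The genes that passed the filter are not a full picture of the 42, since a gene could pass through 1 group alone. The comparisons share samples: NS enters those of AK and of cSCC against it, and each of AK and cSCC also enters 2 of them.

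**Figure D1:**
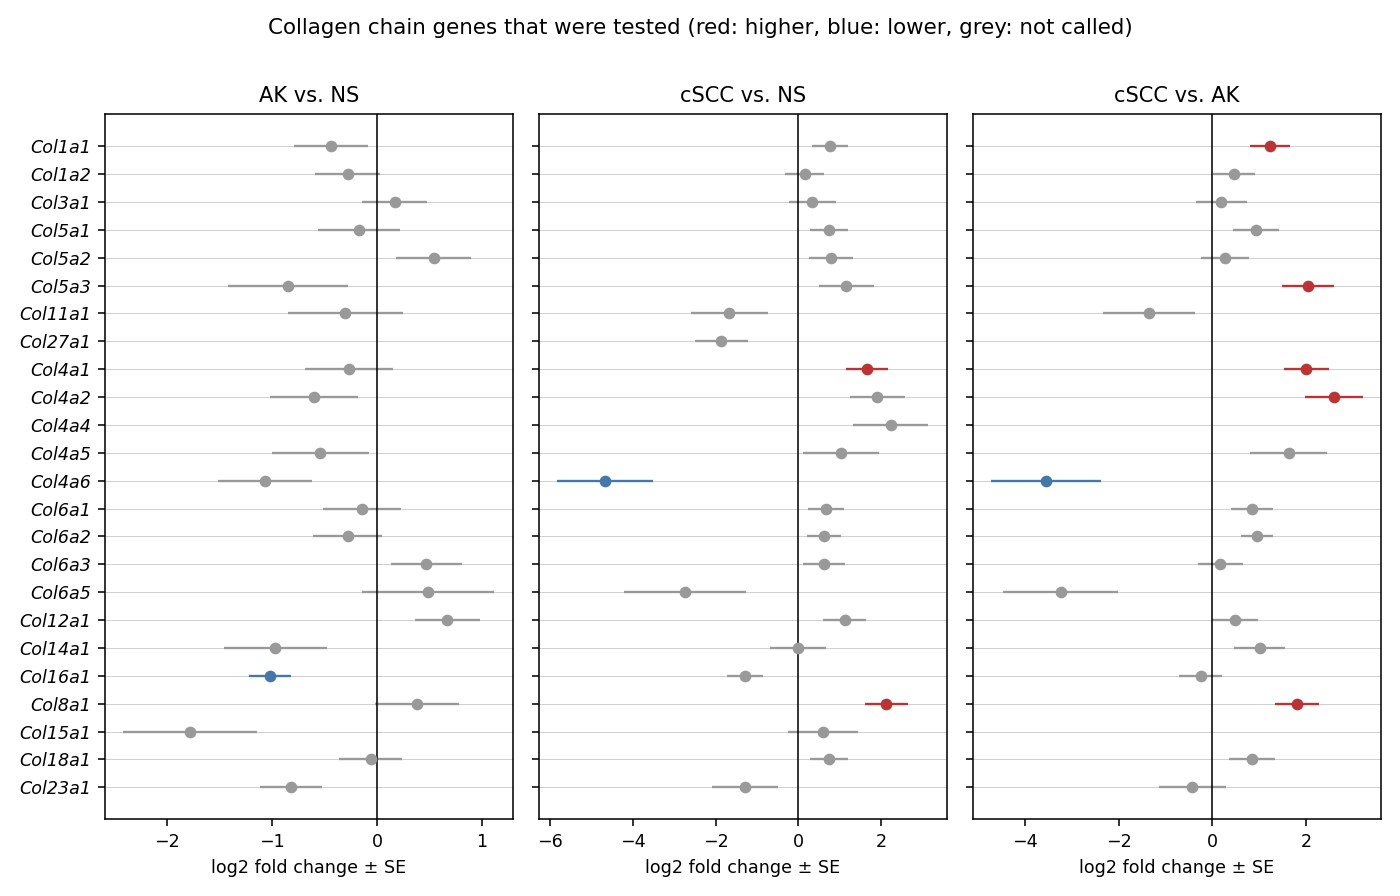
Log2 fold change (x axis, first group over second) with its standard error for each collagen gene tested (y axis, ordered by class), from edgeR's quasi-likelihood test, in 3 panels, the first for AK vs. NS and the others for cSCC against NS and against AK. Red points are DEGs that were higher, blue points DEGs that were lower, grey points were not called, and a gap is a gene removed by the filter. Col4a6 lies farthest to the left in both cSCC panels, at -4.67 and -3.56, and the x axes of the panels differ.

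Among the fibrillar chains, the genes for types I and III were not called between NS and AK, and Col1a1 was called once, between AK and cSCC. Col1a1 encodes the chain that makes up most of type I collagen. It was measured at 41.7 to 270 CPM in NS (median 130), at 44.1 to 216 CPM in AK (median 81.7) and at 179, 403, 234 and 91.1 CPM in cSCC 18, 19, 20 and 21. The ranges of the 3 groups overlapped, with cSCC 19 alone above all NS. Col1a1 was 2.35-fold higher in cSCC than in AK (log2 fold change 1.23, SE 0.43, edgeR adjusted p = 0.0485). That call depended on single samples and was kept in 3 of 12 fits that left out 1 sample, and was lost without AK 10, 11, 13, 14, 15 or 17 and without cSCC 18, 19 or 20, with log2 fold changes of 0.8 to 1.42 and edgeR adjusted p of 0.0294 to 0.208 over the 12 fits. Against NS its log2 fold change was 0.77 (SE 0.44, edgeR adjusted p = 0.235).

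Its partner Col1a2 was at 137 to 579 CPM in NS (median 317), at 138 to 530 CPM in AK (median 241) and at 301, 616, 513 and 94.3 CPM in cSCC 18 to 21. The groups overlapped, although cSCC 19 was above and cSCC 21 below all NS and AK, and the log2 fold changes of -0.28 (AK vs. NS), 0.16 (cSCC vs. NS) and 0.46 (cSCC vs. AK) were not called. Col3a1, the gene of the more compliant type III fibrils, was at 257 to 1350 CPM in NS (median 615), at 287 to 1390 CPM in AK (median 805) and at 342, 1190, 1900 and 150 CPM in cSCC 18 to 21. The 4 cSCC spanned more than the whole range of NS, and cSCC 20 was the highest of all samples and cSCC 21 the lowest. Log2 fold changes were 0.17, 0.34 and 0.19 (SE 0.31, 0.57 and 0.54) and none was called.

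Type V chains co-assemble with type I and set fibril diameter. Col5a1 was at 3.38 to 23.7 CPM in NS (median 12.7), at 4.79 to 22.8 CPM in AK (median 11.2) and at 15.3, 39.5, 23.9 and 10.9 CPM in cSCC 18 to 21. Col5a2 was at 13 to 116 CPM in NS (median 54.1), at 22.7 to 158 CPM in AK (median 78.2) and at 36.8, 181, 138 and 23.2 CPM in cSCC 18 to 21. For these 2 genes the groups overlapped and no comparison was called. Col5a3, the least abundant type V gene, was at 0.563 to 11.7 CPM in NS (median 4.17), at 0.674 to 5.39 CPM in AK (median 2.95) and at 5.56, 15.4, 14.8 and 8.93 CPM in cSCC 18 to 21. All 4 cSCC were above all 8 AK, by a small margin for cSCC 18, and they overlapped NS. Col5a3 was 4.10-fold higher in cSCC than in AK (log2 fold change 2.04, SE 0.56, edgeR adjusted p = 0.0175). Without cSCC 19 the call was lost (log2 fold change 1.83, edgeR adjusted p = 0.052), and the adjusted p was 0.0128 to 0.052 over the 12 fits that left out 1 sample. Without cSCC 20 and 21 together it was 0.0873.

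The remaining fibrillar genes were low, and they are given because every member is accounted for. Col27a1, the gene of a thin fibril of cartilage and other tissues, was at 1.69 to 7.12 CPM in NS (median 5.47), at 0 to 2.4 CPM in AK (median 0.75) and at 0 to 2.2 CPM in cSCC (median 1.27). It was removed by the filter for AK vs. NS. With no gene filter its log2 fold change for AK vs. NS was -2.42 (edgeR adjusted p = 0.0228), and DESeq2 called it lower too. It also passed the filter and was called lower in each fit without NS 6 or 7 or without AK 10, 11, 12, 13, 14, 15 or 17, which brought the genes lower in AK to 2. For cSCC vs. NS it was 3.63-fold lower on the fitted scale and just outside the threshold (log2 fold change -1.86, SE 0.64, edgeR adjusted p = 0.0539). There DESeq2, library size alone, the study's rule and the fits of all 20 samples or without NS 6 called it lower. limma voom and edgeR with no gene filter did not. Col11a1 was at a mean of 3.68 CPM in NS, 3.02 CPM in AK and 1.24 CPM in cSCC and was not called. Col24a1 had means of 1.91, 1.75 and 1.35 CPM and was not tested.

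**Figure D2:**
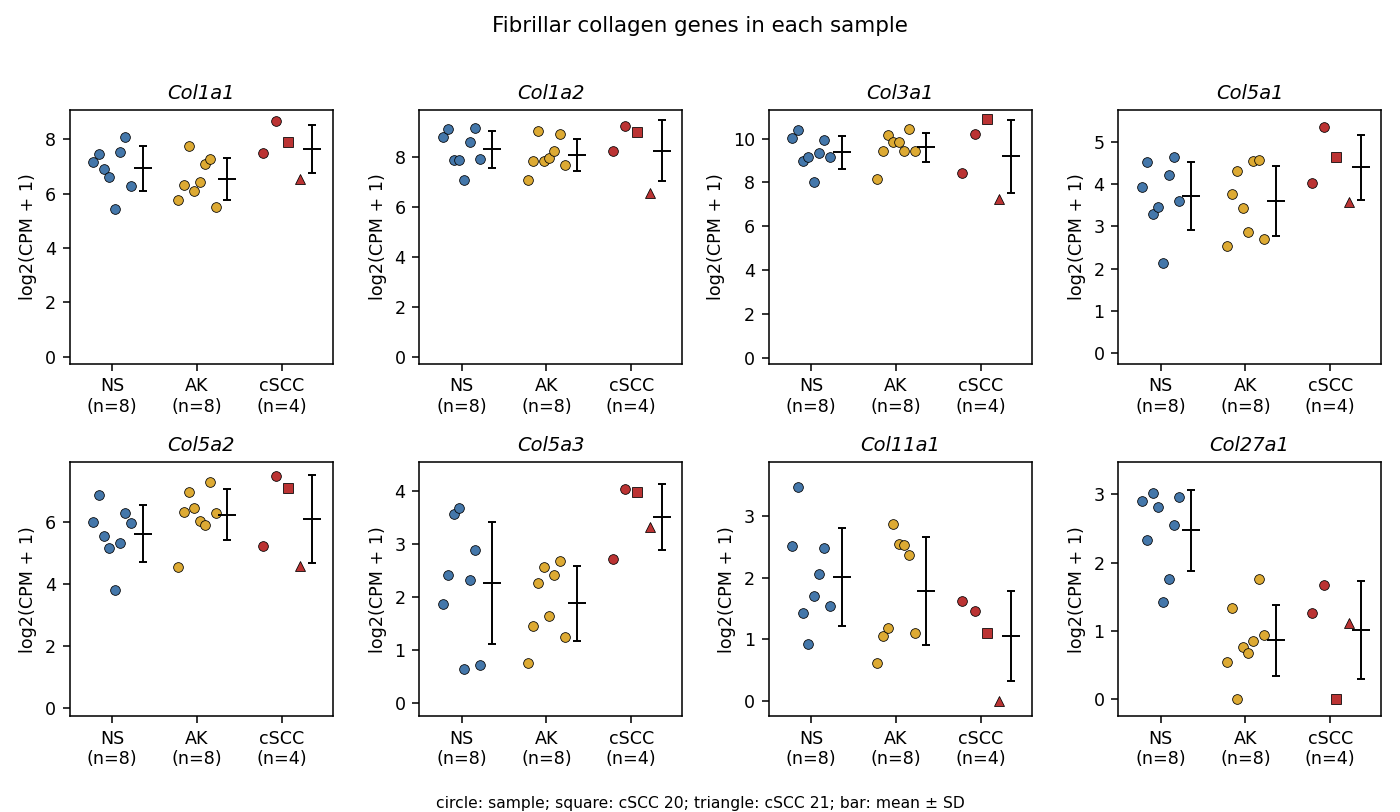
Level of 8 fibrillar collagen genes as log2(CPM + 1) (y axis) in each NS, AK and cSCC sample (x axis), where each circle is 1 sample, the square is cSCC 20, the triangle is cSCC 21, and the bar beside each group is its mean ± SD. Col5a3 is above all AK in the 4 cSCC, and Col27a1 has a median of 5.47 CPM in NS and 0.75 CPM in AK, while Col1a1, Col1a2 and Col3a1 overlap between groups.

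Ratios of 2 collagen genes within a library do not depend on the scaling between libraries, and 8 ratios were compared in the 3 comparisons with two-sided exact permutation tests, adjusted over the 24 tests. The type I genes shifted toward Col1a1 in cSCC. The ratio of Col1a1 to Col1a2 counts was 0.305 to 0.497 in NS (median 0.359), 0.212 to 0.446 in AK (median 0.342) and 0.592, 0.655, 0.457 and 0.967 in cSCC 18 to 21. All 4 cSCC were above all 8 AK, while cSCC 20 fell within NS. On the log2 scale cSCC exceeded AK by 0.94 (-0.64 ± 0.45, SD, n = 4, against -1.57 ± 0.34, n = 8, exact permutation p = 0.00202, the smallest that 495 splits allow, adjusted p = 0.0466). Against NS the log2 difference was 0.77 (exact permutation p = 0.0101, adjusted p = 0.0606), which did not pass. Leaving out cSCC 18, 19 or 21 gave adjusted p = 0.0727 for cSCC vs. AK in each case (exact permutation, log2 differences 0.98, 0.93 and 0.74), and the adjusted p over the 12 such tests was 0.0466 to 0.0727. With 3 cSCC, few splits are left, so a lost call says little about the difference.

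In AK, Col5a2 gained on Col1a2. The ratio of their counts was 0.0947 to 0.258 in NS (median 0.143), 0.165 to 0.374 in AK (median 0.294) and 0.122 to 0.293 in cSCC (median 0.257). The groups overlapped, and the log2 difference of AK over NS was 0.86 (-1.87 ± 0.44 against -2.72 ± 0.50, SD, n = 8 each, exact permutation p = 0.00389, adjusted p = 0.0466). It was lost in 12 of 16 tests that left out 1 sample (NS 1, 4, 5, 6, 7 or 8, or AK 11, 12, 13, 14, 16 or 17, adjusted p = 0.0522 or 0.0606), with log2 differences of 0.76 to 0.97. The ratio of Col3a1 to Col1a1 was 3.56 to 7.74 in NS, 5.13 to 15.8 in AK and 1.65 to 8.09 in cSCC. Its log2 difference was 0.62 for AK vs. NS and -1.52 for cSCC vs. AK (exact permutation p = 0.0406 and 0.00808, adjusted p = 0.195 and 0.0606), and neither passed. The ratio of Col5a1 to Col1a1 had medians of 0.0975, 0.136 and 0.1 in NS, AK and cSCC. Of the 24 tests, 2 passed.

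**Figure D3:**
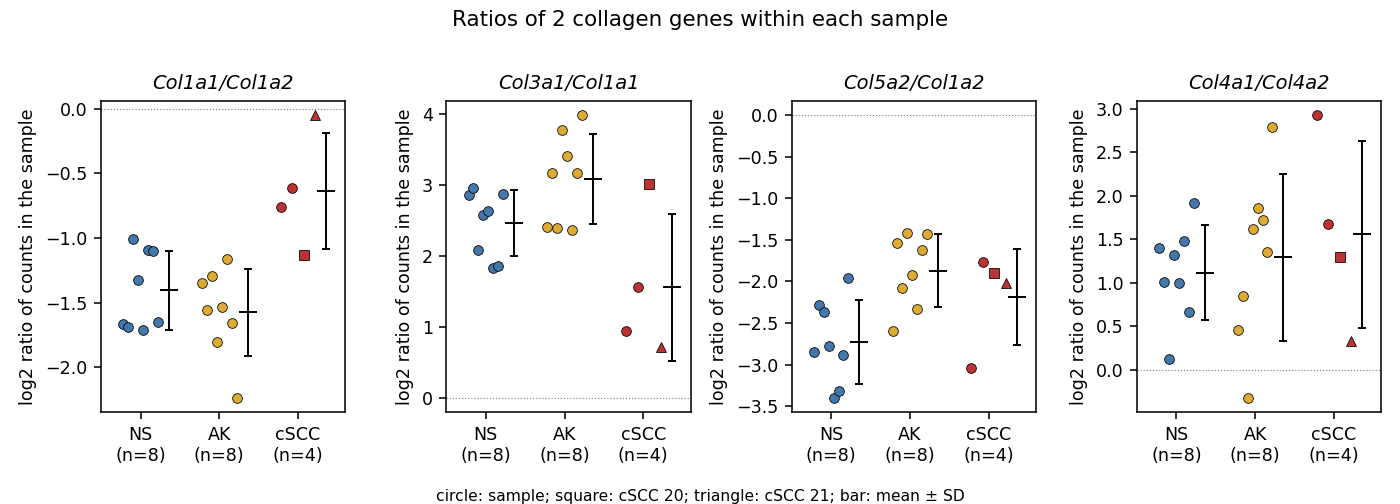
Log2 ratio of the counts of 2 collagen genes within each sample (y axis), for Col1a1 over Col1a2, Col3a1 over Col1a1, Col5a2 over Col1a2 and Col4a1 over Col4a2, by group (x axis), where each circle is 1 sample, the square is cSCC 20, the triangle is cSCC 21, bars are mean ± SD and the dotted line marks equal counts. All 4 cSCC lie above all AK for Col1a1 over Col1a2, and Col4a1 over Col4a2 overlaps between the 3 groups.

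The type IV genes held calls in both directions. Col4a1 and Col4a2 encode the chains of the network found in nearly all basement membranes. Col4a1 was at 7.89 to 68.9 CPM in NS (median 18.6), at 5.04 to 30.8 CPM in AK (median 24.3) and at 26.4, 75.6, 61.4 and 140 CPM in cSCC 18 to 21. cSCC 19, 20 and 21 were above all AK, and cSCC 18 was not. Col4a1 was 4.03-fold higher in cSCC than in AK (log2 fold change 2.01, SE 0.49, edgeR adjusted p = 0.011) and 3.19-fold higher than in NS (log2 fold change 1.67, SE 0.51, edgeR adjusted p = 0.0336). Without cSCC 21 these were 1.38 (adjusted p = 0.0636) and 1.17 (adjusted p = 0.148), so both calls were lost. The call against NS was also lost without cSCC 19 or without NS 4, 5, 6, 7, 8 or 9, with adjusted p of 0.00898 to 0.148 over the 12 fits that left out 1 sample. For cSCC vs. AK the adjusted p over the 12 fits was 0.00396 to 0.0636.

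Col4a2 was at 3.94 to 34.2 CPM in NS (median 9.56), at 2.29 to 12 CPM in AK (median 8.85) and at 3.47, 23.7, 25 and 111 CPM in cSCC 18 to 21. The value of cSCC 21 stood far above the others, and cSCC 18 was below the NS and AK medians. Col4a2 was 6.03-fold higher in cSCC than in AK (log2 fold change 2.59, SE 0.62, edgeR adjusted p = 0.0102), and against NS the log2 fold change was 1.91 (SE 0.67, edgeR adjusted p = 0.0577). Without cSCC 21 they were 1.17 (adjusted p = 0.171) and 0.62 (adjusted p = 0.554), and without cSCC 20 and 21 together 0.91 and 0.29 (adjusted p = 0.371 and 0.832). Over the 12 fits for cSCC vs. AK that left out 1 sample, the adjusted p was 0.00144 to 0.171. Against NS, Col4a2 was called higher by DESeq2 and in the fits of all 20 samples, without NS 2 or without cSCC 18. limma voom did not call it there. The ratio of Col4a1 to Col4a2 counts was 1.09 to 3.77 in NS, 0.8 to 6.9 in AK and 1.26 to 7.6 in cSCC, and its log2 difference did not pass in any comparison (exact permutation, adjusted p = 0.588 to 0.866).

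Vessel genes were high in the cSCC library with the highest Col4a1 and Col4a2, but not in step with them in all libraries. The summed level of 8 endothelial genes was 27.6 to 101 CPM in NS, 30.3 to 93.5 CPM in AK and 108, 135, 225 and 727 CPM in cSCC 18 to 21, with 7 of 8 higher in cSCC than in NS and 8 of 8 higher than in AK. Without cSCC 21, 3 and 2 of 8 were called by edgeR, and without cSCC 20 and 21 together 0 and 1 of 8. The sum of 6 pericyte and smooth muscle genes was 791 CPM in cSCC 21 and 83.4 to 134 CPM in the other cSCC, against 47.5 to 242 CPM in NS and 62.5 to 315 CPM in AK, and none of the 6 was at 0 in all samples of a group. cSCC 18 had an endothelial sum above all NS and AK, while its Col4a2 was below all NS and its Col4a1 lay within NS and AK. Emcn alone gave 49.3 CPM of that sum of 108 CPM, and Cldn5 was at 0 in cSCC 18. Heart muscle genes were high in cSCC 21 as given above. The part of vessel cells and of heart muscle RNA in the Col4a1 and Col4a2 values was not tested.

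Col4a6, which pairs with Col4a5 in the epidermal basement membrane, went the other way. It was at 3.4 to 19.4 CPM in NS (median 4.95), at 0.935 to 6.94 CPM in AK (median 3.9) and at 0, 0, 2.28 and 0 CPM in cSCC 18 to 21. The 4 cSCC held 0, 0, 2 and 0 counts, all below the 8 NS, and cSCC 20 alone overlapped AK. Col4a6 was called lower in cSCC than in NS (log2 fold change -4.67, SE 1.16, edgeR adjusted p = 0.014) and than in AK (log2 fold change -3.56, SE 1.17, edgeR adjusted p = 0.0391). Summed over libraries, 2 counts in cSCC against 260 in NS gave a level 42.5-fold lower relative to the scaled library totals (95% exact interval 11.6 to 353, counting error only), and against 144 counts in AK 19.8-fold lower (5.39 to 165). The fitted sizes depend on a small added count, and without cSCC 20, which held the 2 counts, they were -7.87 against NS and -7.02 against AK (edgeR adjusted p = 0.00456 and 0.00722). The call against NS was kept in all 12 fits that left out 1 sample (adjusted p 0.00456 to 0.0406) and without cSCC 20 and 21 together, and was lost with limma voom (log2 fold change -3.30, adjusted p = 0.168, where the range over all 22 alternatives was 0.000292 to 0.168). The call against AK was kept in 3 of 12 such fits, and was lost without AK 10, 11, 12, 14, 15 or 17 or cSCC 18, 19 or 21 (adjusted p 0.00722 to 0.127). For AK vs. NS the log2 fold change was -1.07 (edgeR adjusted p = 0.152).

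The neighbour Col4a5 was split among the cSCC. It was at 0.609 to 12.1 CPM in NS, at 1.64 to 6.03 CPM in AK and at 0.695, 0, 28.4 and 15.7 CPM in cSCC 18 to 21. cSCC 18 and 19 were near or below the lowest NS, while cSCC 20 and 21 were above all NS. Its log2 fold changes of 1.03 (cSCC vs. NS) and 1.63 (cSCC vs. AK) were not called (edgeR adjusted p = 0.459 and 0.157), and without cSCC 19 it was called higher than in AK (log2 fold change 2.05, edgeR adjusted p = 0.0392). Without cSCC 20 and 21 together the direction turned, to -4.13 against NS and -3.59 against AK (edgeR adjusted p = 0.0821 and 0.0542), the direction of Col4a6. Those fits rest on 1 and 0 counts of Col4a5 in cSCC 18 and 19, under the floor of 3 counts. Col4a4, a chain of kidney, lung and eye basement membranes, showed the same split, with 0.695, 0.879, 28.4 and 11.6 CPM in cSCC 18 to 21 against 0 to 5.77 CPM in NS and 0 to 2.52 CPM in AK. Its log2 fold change for cSCC vs. NS was 2.24 (SE 0.91, edgeR adjusted p = 0.0986), was 1.12 without cSCC 20 and turned to -1.41 without cSCC 20 and 21 together (edgeR adjusted p = 0.426 and 0.513). Col4a4 held 1 and 2 counts in cSCC 18 and 19, also under that floor. Without cSCC 18 it was called higher (2.59, edgeR adjusted p = 0.0492). For cSCC vs. AK it was removed by the filter, and edgeR without a filter and DESeq2 called it higher. Col4a3, its head-to-head partner with starts 72 bases apart, had mean levels of 0.761, 0.663 and 4.61 CPM in NS, AK and cSCC and was not tested. cSCC 20 and 21 are the samples with lung and heart genes, whose part in these values was not tested.

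**Figure D4:**
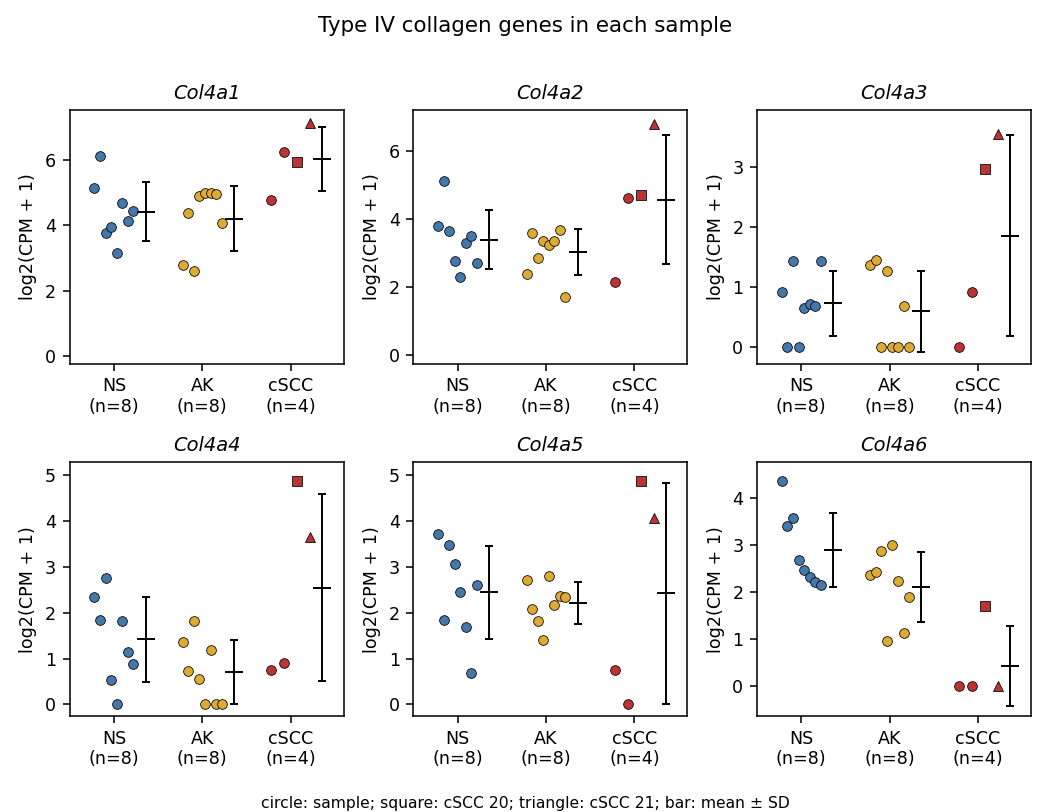
Level of the 6 type IV collagen genes as log2(CPM + 1) (y axis) in each NS, AK and cSCC sample (x axis), where each circle is 1 sample, the square is cSCC 20, the triangle is cSCC 21, and bars are mean ± SD. The triangle is highest for Col4a1 and Col4a2, at 140 and 111 CPM, the square and triangle stand apart for Col4a3, Col4a4 and Col4a5, and Col4a6 is at 0 in cSCC 18, 19 and 21.

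Type VI chains were not called by edgeR in any comparison of all samples. Col6a1 was at 14.1 to 60.9 CPM in NS (median 39.6), at 11.4 to 79.7 CPM in AK (median 28.1) and at 26.4, 80.9, 31.9 and 73.1 CPM in cSCC 18 to 21. Col6a2 was at 5.07 to 39.4 CPM in NS (median 25.3), at 7.93 to 28.8 CPM in AK (median 20.4) and at 25.7, 49.7, 26.2 and 38.7 CPM in cSCC 18 to 21. For Col6a2 the cSCC lay in the upper part of AK or above it, and the log2 fold change of cSCC vs. AK was 0.95 (SE 0.35, edgeR adjusted p = 0.0608), outside the threshold, while DESeq2 called it higher (log2 fold change 0.97, adjusted p = 0.0494). Col6a1 was called higher for cSCC vs. AK in the fit without AK 16. Col6a3, the large chain of the filament, was at 15.8 to 120 CPM in NS (median 51.9), at 29.9 to 156 CPM in AK (median 82.9) and at 75.7, 192, 88.7 and 21.2 CPM in cSCC 18 to 21. cSCC 21 was therefore the lowest cSCC for Col6a3 but the second of the 4 from the top for Col6a1 and Col6a2. The ratio of Col6a3 to Col6a1 counts was 0.29 in cSCC 21 and 1.08 to 4.96 in NS and AK, and its log2 differences of 0.64, -0.25 and -0.89 did not pass (exact permutation, adjusted p = 0.222, 0.866 and 0.442). Col6a5, an alternative chain found in skin, was at 0 to 9.85 CPM in NS and 1.26 to 9.59 CPM in AK, and 3 counts were found in cSCC, all in cSCC 20. Summed over libraries this was 13.4-fold lower than AK relative to the scaled library totals (95% exact interval 4.49 to 65.7, counting error only), and the edgeR test gave adjusted p = 0.0666, while DESeq2 called it lower (log2 fold change -3.11, adjusted p = 0.0286). Without cSCC 20, Col6a5 had no count in cSCC and was called lower than in AK and in NS (edgeR adjusted p = 0.00793 and 0.043). Col6a6 and Col6a4 were not tested, with means of at most 1.64 and 0.563 CPM.

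In the edgeR fit of all AK and NS, the 1 collagen gene called was Col16a1 (Col27a1, given above, was also called under other settings). Col16a1 encodes a fibril-associated chain found near fibrillin microfibrils and the basement membrane of skin. It was at 19.1 to 34.7 CPM in NS (median 26.7), at 7.19 to 17.7 CPM in AK (median 14.8) and at 18.8, 8.35, 15.9 and 2.32 CPM in cSCC 18 to 21. All 8 AK and all 4 cSCC were below all 8 NS. Col16a1 was 2.03-fold lower in AK than in NS (13.8 ± 3.92 against 27.5 ± 5.14 CPM, SD, n = 8 each, log2 fold change -1.02, SE 0.20, edgeR adjusted p = 0.017). The call was kept in all 16 fits that left out 1 sample (log2 fold change -1.08 to -0.94, adjusted p 0.0102 to 0.0421) and was lost when all 20 samples were fitted together (log2 fold change -1, adjusted p = 0.136). In cSCC vs. NS the log2 fold change was -1.29 (SE 0.44, edgeR adjusted p = 0.0542), outside the threshold although the groups did not overlap. There DESeq2, library size alone, the study's rule and the fit of all 20 samples called Col16a1 lower. The fits without cSCC 18 or without cSCC 20 did so too, and limma voom did not. Between cSCC and AK the log2 fold change was -0.25 (edgeR adjusted p = 0.731).

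Col12a1, the gene of a fibril-associated chain of stressed connective tissue, was at 22.5 to 117 CPM in NS (median 48), at 32.1 to 132 CPM in AK (median 91.5) and at 122, 211, 118 and 13.2 CPM in cSCC 18 to 21. cSCC 18, 19 and 20 were above all NS, and cSCC 21 was below all of them. The log2 fold changes were 0.67 for AK vs. NS and 1.13 for cSCC vs. NS (SE 0.31 and 0.52, edgeR adjusted p = 0.191 and 0.138). Col12a1 was called higher for cSCC vs. NS without cSCC 21, without cSCC 20 and 21 together, and with limma voom. Col14a1, a related chain of mature dermis, was at 0.563 to 41.9 CPM in NS (median 14.9), at 2.52 to 20.6 CPM in AK (median 6.9) and at 4.86, 31.2, 14.8 and 10.9 CPM in cSCC 18 to 21. It was not called, with log2 fold changes of -0.97, -0.01 and 1.01 for AK vs. NS and for cSCC against NS and against AK (edgeR adjusted p = 0.226, 0.991 and 0.183).

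Col8a1, a short-chain collagen gene, was higher in cSCC than in both other groups. It was at 2.92 to 17.4 CPM in NS (median 10.2), at 5.26 to 26.4 CPM in AK (median 13.4) and at 14.6, 69.0, 23.9 and 64.8 CPM in cSCC 18 to 21. cSCC 19, 20 and 21 were above all NS, cSCC 19 and 21 were above all AK, and cSCC 18 lay within both groups. Col8a1 was 4.38-fold higher in cSCC than in NS (43.1 ± 27.8, SD, n = 4, against 10.3 ± 6.17 CPM, n = 8, log2 fold change 2.13, SE 0.52, edgeR adjusted p = 0.0128). This call was kept in all 12 fits that left out 1 sample (log2 fold change 1.82 to 2.4, adjusted p 0.0051 to 0.0435) and without cSCC 20 and 21 together (log2 fold change 2.05, adjusted p = 0.0465). It was 3.49-fold higher in cSCC than in AK (log2 fold change 1.80, SE 0.47, edgeR adjusted p = 0.0142). That call was lost without cSCC 21 (log2 fold change 1.42, adjusted p = 0.0609), the adjusted p over the 12 fits being 0.00458 to 0.0609, and without cSCC 20 and 21 together (adjusted p = 0.0542). Its partner Col8a2 and the growth cartilage gene Col10a1 had means of at most 0.792 and 0.382 CPM and were not tested.

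Of the multiplexins, Col15a1 was at 0 to 15.1 CPM in NS (median 4.34), at 0 to 4.22 CPM in AK (median 1.07) and at 2.08, 3.95, 1.14 and 19.7 CPM in cSCC 18 to 21. AK lay in the lower part of NS, and the log2 fold change of AK vs. NS was -1.78 (SE 0.64, edgeR adjusted p = 0.0978). For cSCC vs. AK it was removed by the filter, and it was called higher in each fit without cSCC 18, 19 or 20 and by DESeq2. It was not called by edgeR with no gene filter (log2 fold change 2.12, adjusted p = 0.0749) or without cSCC 20 and 21 together (1.12, adjusted p = 0.467). For cSCC vs. NS the log2 fold change was 0.60 and turned to -0.93 without cSCC 21 (edgeR adjusted p = 0.655 and 0.561). Col18a1, the source of endostatin, was at 10.4 to 35.5 CPM in NS (median 24.3), at 11.4 to 45.2 CPM in AK (median 18.7) and at 31.3, 80.9, 20.5 and 9.92 CPM in cSCC 18 to 21. The groups overlapped and it was not called, but without cSCC 20 and 21 together it was called higher for cSCC vs. NS (log2 fold change 1.39, edgeR adjusted p = 0.0484), and without cSCC 19 the value was -0.07. The transmembrane gene Col23a1 was at 8.69 to 39.4 CPM in NS (median 24), at 7.54 to 19.5 CPM in AK (median 12.3) and at 8.34, 15.4, 12.5 and 0 CPM in cSCC 18 to 21. It was not called for AK vs. NS (log2 fold change -0.82, SE 0.30, edgeR adjusted p = 0.105). Col13a1, another transmembrane gene, was at 0 to 1.12 CPM in NS, at 0 to 1.92 CPM in AK and at 2.08, 4.83, 14.8 and 1.82 CPM in cSCC 18 to 21, all 4 above all NS, on at most 13 counts a sample. It was removed by the filter, and edgeR without a filter and DESeq2 called it higher in cSCC than in NS and than in AK. Col28a1 had means of 1.21, 1.3 and 0.439 CPM and was not tested.

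**Figure D5:**
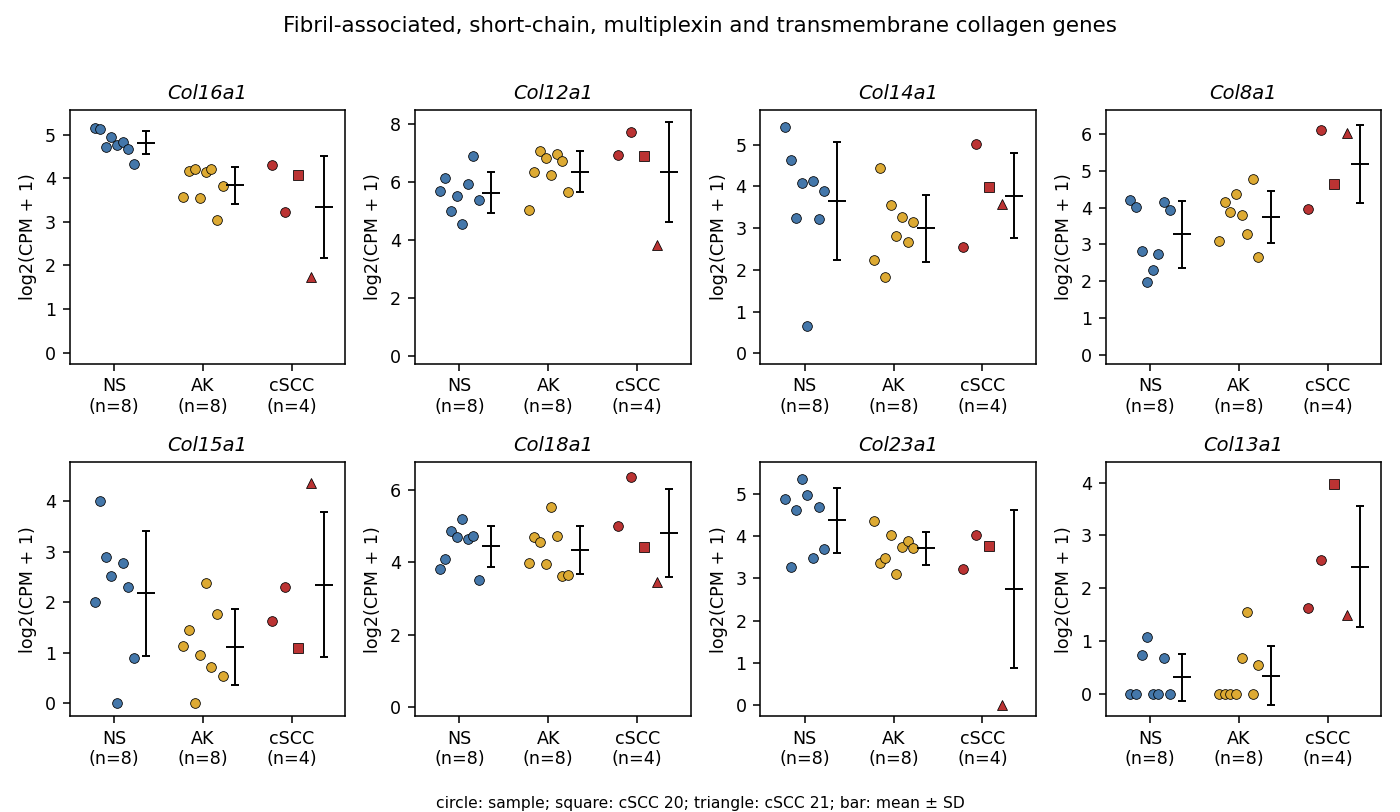
Level of 8 further collagen genes as log2(CPM + 1) (y axis) in each NS, AK and cSCC sample (x axis), where each circle is 1 sample, the square is cSCC 20, the triangle is cSCC 21, and bars are mean ± SD. Col16a1 in AK and cSCC lies below all NS (19.1 to 34.7 CPM). For Col12a1, Col16a1, Col18a1, Col23a1 and Col13a1 the triangle of cSCC 21 lies below the other cSCC, by a small margin for Col13a1.

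Within a group, collagen genes were often high or low in the same sample. Of 18 collagen genes (the 7 called in any comparison and a set of the main fibrillar, type IV, type VI and other chains), NS 6 was the lowest NS for 14, AK 10 was the lowest AK for 8, and cSCC 19 was the highest cSCC for 12. cSCC 21 was the lowest cSCC for 9 and cSCC 18 for 8, and these counts rest on values that share a library. The summed level of 8 fibroblast genes was 604, 3060, 3970 and 1840 CPM in cSCC 18 to 21, against 754 to 6690 CPM in NS and 857 to 3590 CPM in AK, and none of them was at 0 in all samples of a group. In the edgeR fits of all samples compared, Thy1 was called lower in AK and in cSCC than in NS. No other gene of the 8 was called in those fits. Thy1 was at 37.4 to 89.8 CPM in NS, 21.6 to 36.9 CPM in AK and 29.2, 38.2, 13.7 and 6.12 CPM in cSCC 18 to 21. Its call for cSCC vs. NS was lost without cSCC 20 or without cSCC 21.

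The enzymes that act on collagen chains were described by lists. Of 15 prolyl and lysyl hydroxylase and glycosyltransferase genes, 13 were tested for AK vs. NS and edgeR called 0, with 1 higher at an unadjusted p-value under 0.05, 0 called by DESeq2 and 1 by limma voom. For cSCC vs. NS 5 of 14 were higher and for cSCC vs. AK 5 of 14, with a median log2 fold change of 0.68 in each. Plod1 and Plod2, which hydroxylate lysines, had log2 fold changes of 2.49 and 1.72 against NS (SE 0.57 each) and of 3.01 and 1.82 against AK (edgeR adjusted p = 0.00978, 0.0465, 0.00911 and 0.016). Plod1 was at 6.95, 29.9, 13.7 and 137 CPM in cSCC 18 to 21. Plod2 was at 23.6, 10.1, 18.2 and 19.8 CPM there, above all 8 AK, which had at most 8.67 CPM. The prolyl hydroxylase genes P4ha1 (against NS), P4ha2 (against both) and Lepre1, now called P3h1 (against AK), were higher with log2 fold changes of 1.32 to 1.96. P4hb, named after its values were seen, was higher in both. Without cSCC 21, 3 of 14 were called in each comparison: Plod1 and P4ha2 were lost in both, P4ha1 and Plod2 were called against NS and AK respectively, Lepre1 was lost against AK, and Ppib, named after its values were seen, was gained in both. Plod2 against NS was also lost without cSCC 18, without cSCC 20 and with haemoglobin genes left out, and Lepre1 against AK without cSCC 20 and with haemoglobin genes left out. Without cSCC 20 and 21 together, 3 and 2 were called.

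Of 10 folding and secretion genes, edgeR called 0 for AK vs. NS (2 higher and 2 lower at an unadjusted p-value under 0.05, 1 higher and 1 lower by DESeq2 and by limma voom), 3 higher for cSCC vs. NS and 2 higher for cSCC vs. AK. Serpinh1, the procollagen chaperone Hsp47, was at 20.1, 32.5, 28.4 and 623 CPM in cSCC 18 to 21 and at 16.7 to 43.7 CPM in NS, so its log2 fold change of 2.96 (edgeR adjusted p = 0.0126) rested on cSCC 21, without which it was not called higher. Sparc, a matrix protein that binds collagen, was at 574, 1800, 1980 and 549 CPM in cSCC, above all AK (144 to 433 CPM), with a log2 fold change of 2.15 against AK (SE 0.39, edgeR adjusted p = 0.00299) and 1.70 against NS (SE 0.52, edgeR adjusted p = 0.0338), where it was not called without cSCC 20. Fkbp14 was higher against NS (log2 fold change 1.52) and was not called without cSCC 20 or without cSCC 21. Of 13 processing and cross-linking genes, 8 were tested in each comparison. edgeR called 0 for AK vs. NS (2 lower at an unadjusted p-value under 0.05, 0 by DESeq2 and limma voom), 0 for cSCC vs. NS (3 higher at an unadjusted p-value under 0.05, 1 higher by DESeq2 and by limma voom) and 3 higher for cSCC vs. AK. Those were Pcolce, which speeds procollagen C-proteinase, Bmp1, that proteinase, and Loxl1, a cross-linking enzyme, with log2 fold changes of 1.96, 1.55 and 1.63. Without cSCC 21, and without cSCC 20 and 21 together, Bmp1 alone was called. Without cSCC 20 alone, Bmp1 was lost, Pcolce and Loxl1 were kept and Loxl3 was gained.

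Of 14 fibril-associated proteoglycan and glycoprotein genes, 11 were tested in each comparison. Tnxb, the gene of tenascin-X, which spaces dermal fibrils, was lower in AK than in NS (13.8 ± 6.97 against 35.9 ± 20.5 CPM, SD, n = 8 each, log2 fold change -1.41, SE 0.39, edgeR adjusted p = 0.041), whereas limma voom called 0 of the 11 lower. Bgn was higher in cSCC than in AK (log2 fold change 2.10, SE 0.52, edgeR adjusted p = 0.0119), at 11.8, 121, 88.7 and 188 CPM in cSCC 18 to 21, and was not called without cSCC 21. For cSCC vs. NS edgeR called 0 (1 lower at an unadjusted p-value under 0.05, 0 by DESeq2 and limma voom). Among 11 collagen receptor genes, 7 were tested for AK vs. NS and edgeR called 0 (2 higher and 1 lower at an unadjusted p-value under 0.05, 0 by DESeq2 and 1 higher by limma voom). The integrin genes Itga1 and Itgb1 were higher in cSCC than in NS (log2 fold change 2.58 and 1.67, edgeR adjusted p = 0.0241 and 0.00321), and Itga1 was not called without cSCC 21. Ddr2, a receptor kinase for fibrillar collagen, was lower in cSCC than in NS and AK (log2 fold change -1.13 and -1.42, SE 0.33 and 0.28, edgeR adjusted p = 0.0281 and 0.0045), at 21.5 to 46.6 CPM in cSCC and 64.9 to 120 CPM in AK, with no overlap. Against NS it was not called without cSCC 21.

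Of 11 degradation genes, Mmp13, the main collagenase of mice, was higher in AK and in cSCC than in NS (log2 fold change 3.41 and 5.45, SE 0.79 and 0.93, edgeR adjusted p = 0.0247 and 0.00253). It was at 0.352 to 47.2 CPM in NS, 11.5 to 506 CPM in AK and 926, 1160, 489 and 112 CPM in cSCC 18 to 21, so all cSCC were above all NS. Mmp9, a gelatinase, was higher in cSCC than in NS (log2 fold change 2.79, SE 0.49, edgeR adjusted p = 0.00288). For cSCC vs. AK edgeR called 0 of 11 (4 higher and 1 lower at an unadjusted p-value under 0.05, 1 higher by DESeq2 and 0 by limma voom). Mmp13 was called higher there without cSCC 21 and without cSCC 20 and 21 together. Mmp2 and Prodh were called higher without cSCC 18, and 0 were called without cSCC 20. The lists were small, and the shares of all genes called are those given above.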

How the data were processed

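RNA-seq of 8 NS, 8 AK and 4 cSCC skin samples was used, grouped by the disease state in the labels. The authors trimmed reads with Trimmomatic 0.36 and aligned them with HISAT2. The paper gives GRCm38 and StringTie, whereas the submitters' processing notes name HISAT2 2.0.5, featureCounts 1.5.2 and the builds mm9 and hg19. The deposited values are raw counts per gene symbol. Strand and multi-mapping settings are not given in the sources used here. How reads at the overlapping starts of Col4a1 and Col4a2 were counted is not known. Counts of all 62 pairs of samples within a group differed by more than sampling noise (chi-square over its degrees of freedom at least 11.3, over genes with at least 10 counts summed), so each library was counted as 1 sample.

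Counts were tested with edgeR 4.0.16 in R 4.3.3 (TMM factors, filterByExpr, quasi-likelihood test, Benjamini-Hochberg over all genes), using only the samples compared. The standard error is the log2 fold change divided by the square root of F. Ratios used counts with 0.5 added. Coordinates are from GENCODE M21 on GRCm38. Alternatives were DESeq2 1.42.0, limma 3.58.1 voom with sample quality weights, relative log expression factors, library size alone, no gene filter or a mean CPM of at least 1, no fold limit, the study's unadjusted rule, 1 fit of all samples, a pseudocount of 5 for ratios, and leaving out each sample or cSCC 20 and 21 together. Leaving out haemoglobin genes (also from the totals behind collagen shares), and list counts without doubted cSCC, were added after seeing the data. Scripts were tested on simulated data.

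The collagen genes and the lists were chosen with earlier results of these data known. Values per sample are given for members called in any comparison (at most 12 per comparison) and for Col1a1, Col1a2, Col3a1, Col5a1, Col5a2, Col4a1, Col4a2, Col6a1, Col6a2, Col6a3, Col12a1, Col14a1, Col15a1 and Col18a1, 18 in all, and other members were named so that each is accounted for. Called genes of the lists were named, at most 4 per list and comparison. Some stand under older symbols in the table (P3h1 as Lepre1).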

Additional observations from a re-analysis of the deposited data

Results flagged for a closer look

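Outliers were sought in 54 sets of samples (18 collagen genes in 3 groups) by the gap of the extreme sample relative to the range on log2(CPM + 1), and 4 were found. Chance flags about 1 in 20 of independent sets. These sets share libraries, so that rate does not apply here. Col14a1 in NS 6 was 0.563 CPM, against 8.22 to 41.9 CPM in the other NS. Col6a3 in NS 6 was 15.8 CPM, against 47.4 to 120 CPM. Col3a1 in AK 10 was 287 CPM, against 691 to 1390 CPM in the other AK. Col4a6 in cSCC 20 was 2.28 CPM, against 0 in the other 3 cSCC, and it rests on 2 counts. With 0 in the other 3, the gap equals the range, so this set would be flagged at any level in cSCC 20. NS 6 had 1624325 counts in total and AK 10 had 14055206, so a level of 3 counts was 1.69 and 0.225 CPM.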

How the results depend on the processing

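No paired analysis was possible because the groups share no replicate numbers and the labels do not tie samples to mice. Of the 12 called values, Col8a1 in cSCC vs. NS kept its direction and call under all 22 alternatives with an adjusted p (0.00221 to 0.0465), Col16a1 in AK vs. NS under 24 of 25 (0.000195 to 0.136), Col4a6 in cSCC vs. NS under 21 of 22 (0.000292 to 0.168), and Col5a3 and Col8a1 in cSCC vs. AK under 20 of 22 each (0.00456 to 0.0873 and 0.00387 to 0.0609). Col4a1 and Col4a2 in cSCC vs. AK were kept under 19 of 22 each (up to 0.126 and 0.371), Col4a1 in cSCC vs. NS under 12 (up to 0.272), Col4a6 in cSCC vs. AK under 10 (up to 0.294) and Col1a1 under 8 (up to 0.208). The Col1a1 to Col1a2 ratio was kept under 10 of 14 (up to 0.133) and the Col5a2 to Col1a2 ratio under 5 of 17 (up to 0.0606). No called value reversed.

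Counts of collagen genes lower in AK vs. NS were 2 with DESeq2, the study's rule, no gene filter or a mean CPM of at least 1, and 0 in the fit of all 20 samples. For cSCC vs. NS, library size alone gave 1 higher and 3 lower, DESeq2 4 higher and 3 lower, limma voom 0 lower, and the study's rule and the fit of all 20 samples 3 lower. For cSCC vs. AK, DESeq2 gave 9 higher and 2 lower, limma voom 3 higher and 0 lower, and the study's rule 2 lower. No gene filter and a mean CPM of at least 1 gave 0 lower. Leaving out cSCC 20 and 21 together gave 1 higher (Col1a1) and 2 lower (Col4a6 and Col6a5). The cause of these differences was not tested. Without cSCC 20 and 21 together, 0 ratios passed for cSCC vs. AK, but too few splits were left for any ratio to pass whatever its values. Leaving out 1 sample gave 1 to 2 lower for AK vs. NS, 1 to 4 higher and 1 to 3 lower for cSCC vs. NS, and 2 to 6 higher and 0 to 2 lower for cSCC vs. AK. Of the ratio tests, 0 to 1, 0 to 2 and 0 to 2 passed for AK vs. NS and for cSCC against NS and against AK. Without cSCC 21, 2 were higher for cSCC vs. AK (Col5a3 and Col1a1) and 0 lower. Without cSCC 18, 4 were higher for cSCC vs. NS (Col4a4, Col4a1, Col4a2 and Col8a1), and without cSCC 20, 3 were lower (Col4a6, Col16a1 and Col6a5). A gene under 3.78 CPM cannot be told from absent in the shallowest AK library.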
